A study of Mus musculus with 2 samples.

Results

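The intron of the mouse gene Sfmbt2 holds a long array of repeated microRNA hairpins, and the deposited tables count 119 of them among 2202 annotated hairpins. A hairpin is a folded RNA precursor, and mature microRNAs are the short strands cut out of it. The 119 were chosen by position alone: every hairpin of the tables that lies inside the span of Sfmbt2, on its strand, in GENCODE release M21 for the mm10 assembly. By symbol, 5 belong to the Mir297 family, 23 to Mir466, 14 to Mir467 and 29 to Mir669. The other 48 carry only a Gm number, the provisional symbol of a predicted gene, and have no family in their symbol. A locus number after the family name, as in Mir467a-2, marks 1 of several copies of a microRNA, and 43 hairpins carry one.

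The study sequenced microRNAs from the hearts of 2 female B6CASTF1/J mice, aged 25 days. B6CASTF1/J animals are F1 offspring of C57BL/6J and CAST/EiJ parents, with 1 genome of each strain, and reads were placed on the C57BL/6J-based assembly. Both samples form 1 group, as biological replicates 1 and 2, without treatment, so there was no contrast between conditions. The labels number the animals separately, but both samples carry the same donor identifier, and a free-text label gives months where the age field gives days; SDs over the 2 libraries measure the spread between these samples, which may be technical.

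Sfmbt2 encodes a Polycomb-group protein, and in mouse extraembryonic tissue it is expressed from the paternal allele. The rodent-specific array in its intron is transcribed with the host gene and is known for its role in the placenta. Its members arose by local duplication, so many are exact or near-exact copies of each other. A mature microRNA pairs through its seed, a short stretch near its 5′ end, with sites in messenger RNAs.

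Sequence differences between copies decide which copy a read can be assigned to, so hairpins on which counts fell are shown first. Mir467e and Mir467c are counted members of the Mir467 family. Capitals in Mir467c mark the 4 bases that differ from Mir467e over 86 aligned positions, and the end that extends past Mir467e is in lower case.
Mir467e: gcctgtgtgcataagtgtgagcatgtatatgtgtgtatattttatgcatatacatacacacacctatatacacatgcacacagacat
Mir467c: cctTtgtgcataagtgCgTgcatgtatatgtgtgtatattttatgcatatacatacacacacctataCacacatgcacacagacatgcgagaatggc

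Both hairpins share an unbroken run of 48 nt, longer than the reads of a mature microRNA, so only reads that reach a differing base can be told apart by sequence.

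The next pair is of the Mir669 family. Mir669a-1 is a repeated copy at 0 counts, and capitals in Mir669o mark the 6 bases of 96 that differ from it.
Mir669a-1: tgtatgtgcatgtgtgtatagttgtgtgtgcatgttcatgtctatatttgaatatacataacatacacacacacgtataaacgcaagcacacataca
Mir669o: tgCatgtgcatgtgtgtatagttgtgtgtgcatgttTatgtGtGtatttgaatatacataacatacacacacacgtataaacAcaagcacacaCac

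The other 3 Mir669 hairpins with at least 10 counts in a library are Mir669c, Mir669l and Mir669e. Capitals mark the dinucleotide repeat ACACAC or its reverse complement GTGTGT.
Mir669c: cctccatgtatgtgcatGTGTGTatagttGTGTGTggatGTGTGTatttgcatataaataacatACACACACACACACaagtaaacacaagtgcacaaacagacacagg
Mir669l: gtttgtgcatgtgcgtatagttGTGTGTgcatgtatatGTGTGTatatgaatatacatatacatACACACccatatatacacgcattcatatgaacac
Mir669e: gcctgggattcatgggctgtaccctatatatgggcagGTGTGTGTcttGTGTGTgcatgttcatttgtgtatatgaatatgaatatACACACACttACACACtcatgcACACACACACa

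Of the 119 hairpins, 116 (97.5%) held ACACAC or GTGTGT on the annotated strand, overlapping matches merged, against 384 of all 2202 hairpins (17.4%). The motif search covers both strands of the repeat by searching both words. It marks 32 bases of Mir669c, 18 of Mir669l and 38 of Mir669e. Members had a median GC content of 37.3%, against 50.8% for all hairpins.

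All 119 hairpins lie in 1 intron of Sfmbt2 on the plus strand of chromosome 2. Sfmbt2 spans chr2:10370510-10595253, and the intron, chr2:10461473-10523944, lies between exons 11 and 12 of its transcript Sfmbt2-205. The array runs over 53.0 kb, from Gm22072, its first hairpin, to Mir669h, its last. No hairpin in the span lay on the opposite strand. The hairpins are 73 to 127 nt long, with a median of 98 nt.

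The array contains 88 distinct hairpin sequences, and 47 hairpins are identical in full to at least 1 other. The largest set has 9 members, Mir669a-4 to Mir669a-12. The next has 7, formed by Mir467a-2, Mir467a-4, Mir467a-5, Mir467a-7, Mir467a-8, Mir467a-9 and Gm25022. Mir467a-3, Mir467a-6 and Mir467a-10 form a set of 3. Successive copies of Mir467a, Mir467b and Gm25022, 12 in all, start 2413 to 2470 nt apart, with a median of 2451 nt.

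Replicate 1 had 2050498 counts in hairpins and replicate 2 had 2661090. Reads matching several places made up 38.5% of all reads in replicate 1 and 41.6% in replicate 2 and are in no hairpin's count. A floor of 3 counts, the limit that a count of 0 allows, was 1.46 CPM (a hairpin's count over the library's hairpin sum, on the usual scale) in replicate 1 and 1.13 CPM in replicate 2. Heart muscle hairpins were present in both libraries, but unevenly: all 8 on the list had a count in each. Mir208a had 3322 and 15598 counts in replicates 1 and 2, and Mir499 had 5391 and 6167. Mir208b had 391 and 297, and Mir1a-2 had 94 and 31. The others were near the floor: Mir133a-1 had 3 and 8 counts, Mir133a-2 had 8 and 7, and Mir133b had 8 and 8. Mir1a-1, at 3 and 1, did not exceed the floor in either library. The Mir1a and Mir133a hairpins carry locus numbers, and reads that match more than 1 copy are in none of these counts. A low count there does not show a low level of the microRNA. The 8 measured hairpins of the early embryo and trophoblast list, microRNAs of the Mir290 cluster, summed to 2 and 4 counts, and 6 of them were at 0 in both. Copies of a molecule made by PCR were not told apart, so all intervals and floors given here cover counting error only.

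The whole array was a small part of the heart's hairpin counts. It held 2098 counts in replicate 1, 0.102% of the library (exact 95% interval 0.0980 to 0.107%), and 3337 in replicate 2, 0.125% (0.121 to 0.130%), for a mean of 0.114% ± 0.0163 (SD, n = 2). The counting intervals of the 2 libraries did not overlap. These counts came from 9 hairpins, 9 in replicate 1 and 8 in replicate 2, and the other 110 were at 0 in both. A count of 0 in both libraries was the case for 92.4% of the array, against 69.3% of the 2083 hairpins elsewhere. In the array, 7 hairpins (5.88%) reached 10 counts in both libraries, against 13.1% of all hairpins.

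Mir467d, the most counted hairpin of the array, lies at chr2:10507630-10507714. It had 1317 counts in replicate 1, 642 CPM with an exact interval of 608 to 678, and 1850 counts in replicate 2, 695 CPM with an interval of 664 to 728. Its mean was 669 ± 37.4 CPM (SD, n = 2), and it ranked 79 and 70 among all hairpins of its library. In assigned counts, both libraries put it well above every other hairpin of the array. Reads that matched several places are not in this ranking. It held 62.8% of the array's counts in replicate 1, with an exact interval of 60.7 to 64.8%, and 55.4% in replicate 2, with one of 53.7 to 57.1%.

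Mir467e, the nearest counted hairpin upstream of it, at chr2:10505721-10505807, had 217 counts (106 CPM) in replicate 1 and 507 counts (191 CPM) in replicate 2. There were 6.07 counts of Mir467d per count of Mir467e in replicate 1 and 3.65 in replicate 2. Mir467c, at chr2:10473931-10474027 near the start of the array, had 97 counts (47.3 CPM) in replicate 1 and 169 counts (63.5 CPM) in replicate 2. Each of the 3 was higher in replicate 2 on the CPM scale.

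Together these 3 hairpins held 77.7% of the array's counts in replicate 1 and 75.7% in replicate 2, a mean of 76.7% ± 1.45 (SD, n = 2). The other 11 members of the Mir467 family were at 0 in both libraries: the 10 numbered Mir467a copies and Mir467b.

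The Mir669 family held nearly all the rest, 22.2% in replicate 1 and 24.3% in replicate 2, with a mean of 23.3% ± 1.48 (SD, n = 2). Mir669c, at chr2:10509296-10509404, had 217 counts (106 CPM) in replicate 1 and 360 counts (135 CPM) in replicate 2. Mir669o, at chr2:10514300-10514395, had 200 counts (97.5 CPM) in replicate 1 and 281 counts (106 CPM) in replicate 2. The shares of these 2 hairpins in the array's counts were close in both libraries: 10.3% and 10.8% for Mir669c, and 9.53% and 8.42% for Mir669o.

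Mir669l and Mir669e, both near the start of the array, were lower. Mir669l, at chr2:10468971-10469068, had 38 counts (18.5 CPM) in replicate 1 and 115 counts (43.2 CPM) in replicate 2. Mir669e, at chr2:10467495-10467613, had 10 counts (4.88 CPM) and 50 counts (18.8 CPM). For Mir669e the SD, 9.84 CPM, was close to its mean of 11.8 CPM (n = 2). Mir669h, the last hairpin of the array at chr2:10518155-10518279, had 1 and 5 counts, and Mir466n, at chr2:10513741-10513834, had 1 and 0, so neither stood clear of the floor in both libraries.

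By mean CPM the order was Mir467d, Mir467e (148 ± 59.9), Mir669c (121 ± 20.8), Mir669o (102 ± 5.70), Mir467c (55.4 ± 11.5), Mir669l (30.9 ± 17.5) and Mir669e, each SD over n = 2. Within each library, Mir467d stood above Mir467e, Mir669o above Mir467c, Mir467c above Mir669l and Mir669l above Mir669e, with counting intervals that did not overlap. Mir467e and Mir669c had equal counts in replicate 1, and Mir467e was the higher in replicate 2. Mir669c was above Mir669o in both libraries, with counting intervals that overlapped in replicate 1 and did not in replicate 2. Over the libraries, the ranges of Mir467e and Mir669c and those of Mir669l and Mir669e overlapped. CPM was not divided by hairpin length, because the reads are short fragments of the hairpin, and it counts only the reads of each hairpin that could be assigned to it.

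**Figure D1:**
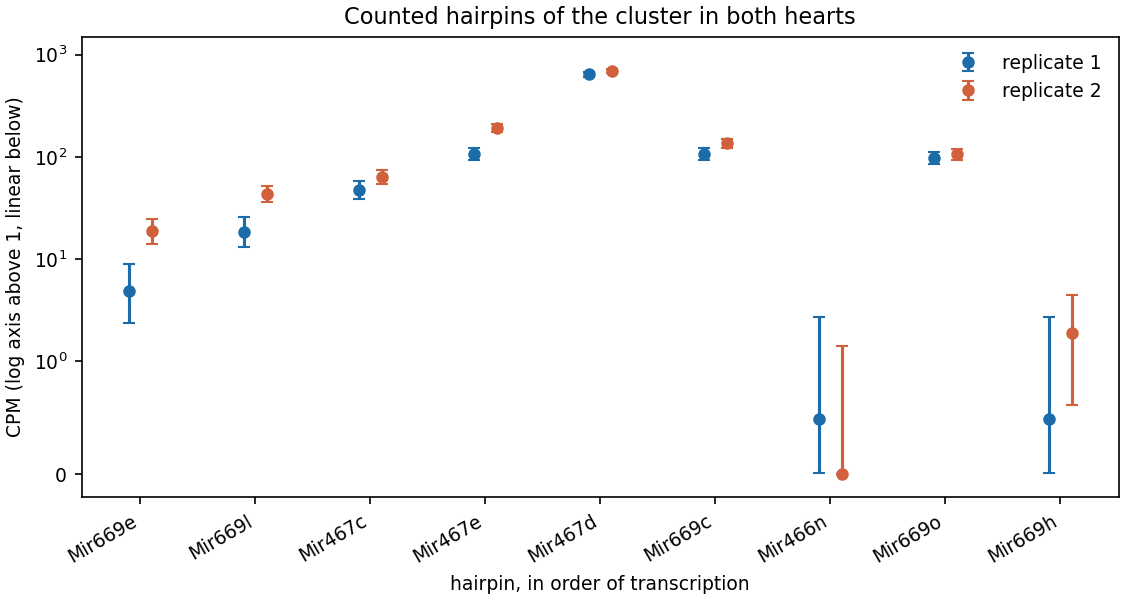
CPM of the 9 counted hairpins in replicate 1 and replicate 2, in the order of transcription, with bars for exact 95% counting intervals on an axis that is logarithmic above 1 and linear below. Mir467d stands highest at 642 and 695 CPM, and Mir466n and Mir669h lie near the floor.

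None of the 9 counted hairpins carries a locus number. All 43 numbered copies were at 0 in both libraries, as were 19 of the 28 hairpins with a family name and no number and all 48 with a Gm symbol. By family, 5 of 5 Mir297 hairpins, 22 of 23 Mir466, 11 of 14 Mir467 and 24 of 29 Mir669 were at 0. Reads on the opposite strand of the array's hairpins numbered 0 in both libraries.

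A read of a mature microRNA can be assigned to a hairpin by its sequence only if that sequence is not shared. Each hairpin was therefore cut into overlapping windows of 22 nt, about the length of a mature microRNA, and a window was called distinct when no other of the 2202 hairpins held it on either strand. Of the array's hairpins, 54 (45.4%) had no distinct window, against 280 of the other 2083 hairpins (13.4%). All 54 were at 0 in both libraries, whereas 24 of the 280 had a count. No genome sequence was used, so a distinct window may still recur elsewhere in the genome.

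Among the 54 were 10 Mir467, 13 Mir669, 9 Mir466 and 22 Gm-named hairpins, and no Mir297 hairpin. Numbered copies made up 31 of them. Of the 28 family-named hairpins without a number, 1 (Mir466e, named after its value was seen) lacked a distinct window. In the Mir467 family, all 10 numbered Mir467a copies had none, Mir467b had 11 of 52, and the 3 counted hairpins had 25 of 64 (Mir467d), 39 of 66 (Mir467e) and 48 of 76 (Mir467c).

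**Figure D2:**
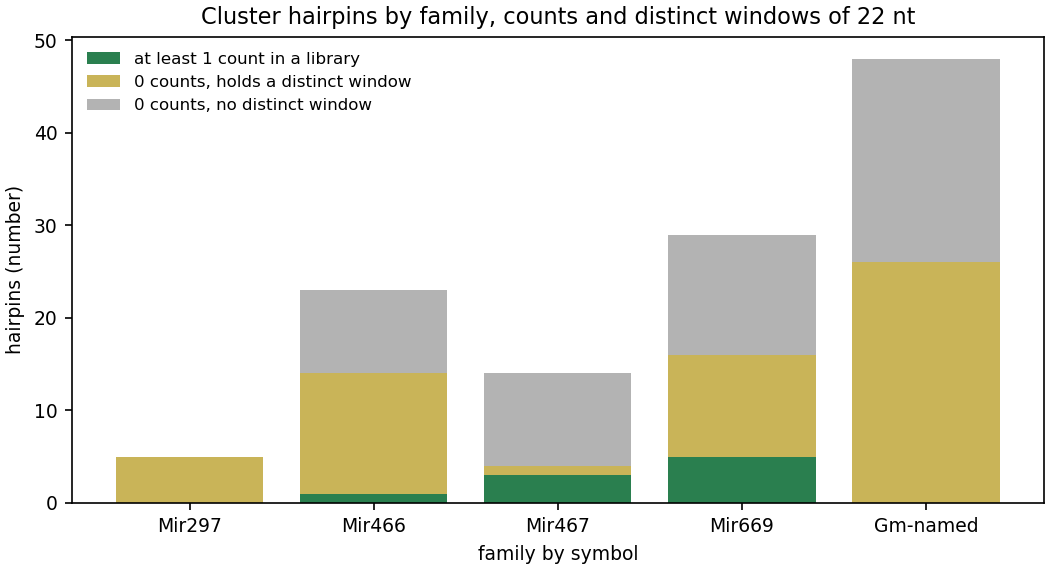
Number of the array's hairpins by family in their symbol, divided into those with at least 1 count in a library, those at 0 that hold a distinct window of 22 nt, and those at 0 that hold none. Counted hairpins are 1 of 23 in Mir466, 3 of 14 in Mir467 and 5 of 29 in Mir669, and none in Mir297 or under a Gm symbol.

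Counted hairpins had more distinct sequence than those at 0: the median share of distinct windows was 59.1% over the 9 counted hairpins and 6.60% over the 110 at 0. The 110 include the 54 hairpins with no distinct window, which lower that median. Of the 65 hairpins with at least 1 distinct window, 9 had a count and 56 were at 0 in both libraries. Mir467d, the most counted, had the lowest share of distinct windows of the 9 counted hairpins, 39.1%, and Mir669e, the lowest of the 7 with at least 10 counts in both libraries, had the highest, 96.9%. At 0 in both libraries were 31 hairpins with a share at or above that of Mir467d, 15 with a family name and 16 with a Gm symbol. Mir466g and Gm22239, named after their values were seen, had every window distinct and 0 counts in both libraries.

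The number of distinct windows and counts can be set side by side with the other hairpins of the tables. With 1 to 20 distinct windows, 0 of 8 in the array and 8 of 129 elsewhere had a count. With 21 to 40, these were 2 of 29 and 68 of 344, and with 41 or more, 7 of 28 and 539 of 1330. Over these ranges the share with a count was greater with more distinct windows in both sets. Elsewhere, though, 24 of 280 hairpins with no distinct window had a count, a larger share than with 1 to 20. In each range the share with a count was lower in the array. This difference was not tested because neighbouring copies are not independent. At 10 counts or more in both libraries, 1 to 20 windows gave 0 of 8 in the array and 4 of 129 elsewhere. With 21 to 40, these were 2 of 29 and 6 of 344, so the share was greater in the array. With 41 or more, these were 5 of 28 and 257 of 1330. By this cut-off the share elsewhere was lower with 21 to 40 windows than with 1 to 20.

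The counted hairpins lie toward the 2 ends of the array. From Gm22072 to Mir467c there are 17 hairpins, each with a distinct window, and 3 were counted: Mir669e, Mir669l and Mir467c, at 97.0, 98.5 and 103 kb from the start of Sfmbt2. Between Mir467c and Mir467e, over 31.7 kb, all 72 hairpins were at 0 in both libraries. As these borders are neighbouring counted hairpins, the counts of 0 between them follow from where the borders were set. From Mir467e on there are 30 hairpins, of which 6 had a count, with Mir467e at 135 kb, Mir467d at 137 kb, Mir669c at 139 kb and Mir669o at 144 kb.

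The middle stretch is also where copies are most alike. There 52 of 72 hairpins (72.2%) had no distinct window, and the median identity of a hairpin to its nearest relative in the array was 100%. In the first stretch 0 of 17 and in the last 2 of 30 had no distinct window, with median identities of 83.7% and 85.7%. The part of this likeness in the counts of 0 was not tested, and the stretches were set by counted hairpins. The last stretch held 93.1% of the array's counts in replicate 1 and 90.0% in replicate 2, and the first held the rest.

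**Figure D3:**
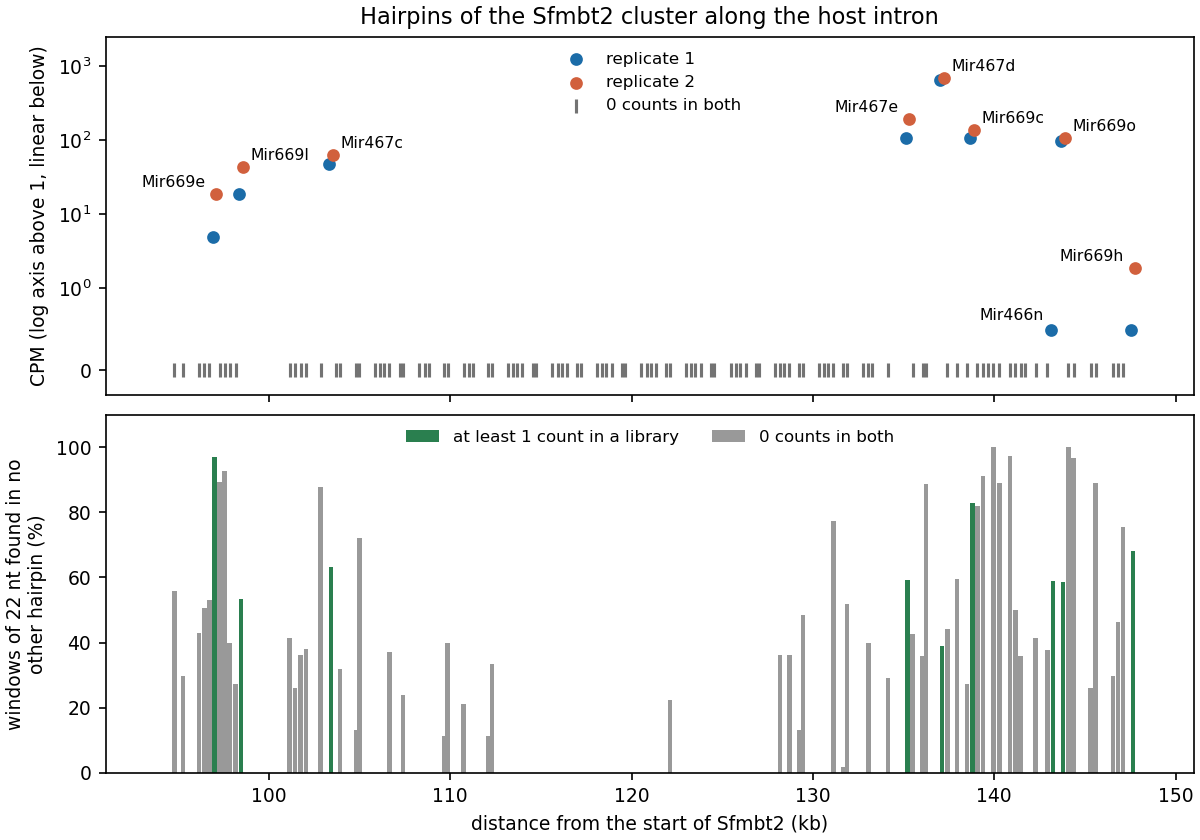
Upper panel, CPM of each hairpin against its distance from the start of Sfmbt2 in kb, with the libraries drawn slightly apart and ticks for hairpins at 0 in both; lower panel, the percent of its 22 nt windows found in no other hairpin. The 9 counted hairpins lie at either end of the array. The 72 between the neighbouring counted hairpins Mir467c and Mir467e are all at 0 by that choice of borders.

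Hairpins of the same families outside Sfmbt2 were at 0 as well. There were 10 of them, on other chromosomes: Mir297-1, Mir466f-4, Mir466i, Mir466j, Mir466k, Mir466q, Mir467f, Mir467g, Mir467h and Mir669n. None reached 1 count in either library, and all 10 had a distinct window. Of all 1803 hairpins outside the array with a distinct window, 1188 were at 0 in both libraries.

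Another large imprinted microRNA cluster was counted differently. The Dlk1-Dio3 region, transcribed from the maternal allele from Meg3 to Mirg, has 59 hairpins in the tables. Of these, 49 had a count, 37 (62.7%) had at least 10 in both libraries, and 6 (10.2%) had no distinct window. Of the 6 with no distinct window, 5 had a count. The region held 0.492% of hairpin counts in replicate 1 and 0.609% in replicate 2, a mean of 0.550% ± 0.0826 (SD, n = 2). The X-linked gene Clcn5, a chloride transporter, hosts 5 hairpins in its introns, each holding a distinct window and at least 10 counts in both libraries. These 5 held 0.120% and 0.149% of hairpin counts, a mean of 0.134% ± 0.0211 (SD, n = 2), above the assigned counts of the Sfmbt2 array in each library. Of the array's 119 hairpins, 54 (45.4%) had no distinct window, and reads that matched several places are in none of these shares.

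The counts of the array were also compared between the 2 libraries, hairpin by hairpin. Library sizes were scaled by TMM, which sets the bulk of hairpins to no change, and an exact binomial test, two-sided, set the 2 counts of a hairpin against the scaled sizes, with Benjamini-Hochberg adjustment over 326 hairpins that reached 10 counts in a library. The test bears on these libraries alone: for a difference between animals, 2 samples allow no one-sided exact p under 0.5. Of all tested hairpins 62.6% were called at an adjusted p under 0.05, and 36.2% were called as higher in replicate 2. That is 118 higher and 86 lower, which became 76 and 117 when scaled by total hairpin count.

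All 7 tested hairpins of the array were called and were higher in replicate 2. Their median log2 ratio of replicate 2 over replicate 1 was 0.66, against 0.09 over all tested hairpins, of which 178 of 326 (54.6%) lay above 0. Scaling by total count moved the median of all hairpins to -0.14 and that of the 7 to 0.42. Such a change shifts every log2 ratio by the same amount, so the gap of 0.57 between the medians could not change. With that scaling 6 of the 7 were called, and all 7 log2 ratios were above 0.

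The ratios differed among the hairpins of the array. Mir669e had the highest log2 ratio, 2.18, with a counting interval of 1.18 to 3.32 (exact binomial test, adjusted p = 2.13e-06). Mir669l followed at 1.45 (0.91 to 2.02, exact adjusted p = 3.90e-08), and Mir467e at 1.08 (0.85 to 1.31, exact adjusted p = 5.35e-21). Lower ratios were those of Mir467c at 0.66 (0.29 to 1.03), Mir669c at 0.58 (0.34 to 0.83), Mir669o at 0.34 (0.08 to 0.61) and Mir467d at 0.34 (0.24 to 0.45).

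The exact binomial test gave adjusted p-values of 0.000750 for Mir467c, 4.82e-06 for Mir669c, 0.0183 for Mir669o and 1.04e-10 for Mir467d. The interval of Mir467e did not overlap that of Mir467d, while those of Mir467c, Mir669c and Mir669o overlapped. On the unscaled CPM scale, Mir467d and Mir669o were each 1.08 times as high in replicate 2, and Mir669e was 3.85 times as high. The call for Mir669o ended with scaling by total count (log2 ratio 0.11, exact binomial adjusted p = 0.484) and with DESeq2 size factors (0.27, exact binomial adjusted p = 0.0797). Under total-count scaling Mir467d was still called, at a log2 ratio of 0.11 (exact binomial adjusted p = 0.0489). Mir467c was too, at 0.42 (exact binomial adjusted p = 0.0381).

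Other hairpins moved between the same libraries. The heart muscle list summed to 4496 CPM in replicate 1 and 8311 CPM in replicate 2, but only 2 of its 8 hairpins, Mir208a (1620 and 5862 CPM) and Mir133a-1 (3 and 8 counts), were the higher in replicate 2. Mir499 was at 2629 and 2317 CPM. Smooth muscle hairpins were higher in replicate 2 for both members, 29354 and 48287 CPM in sum, and Mir122, of liver, was at 22.9 and 203 CPM. Lower in replicate 2 were the 3 erythroid hairpins, at 1783 and 869 CPM in sum, and Mir126a, of endothelium, at 108082 and 60950.2 CPM. The leukocyte list summed to 4647 and 4648 CPM. In it 3 of 4 hairpins were higher in replicate 2, and Mir155 was lower, at 2981 and 1632 CPM. The part of these hairpins in the array's differences was not tested, and fewer cells of a type cannot be told apart from less RNA per cell.

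**Figure D4:**
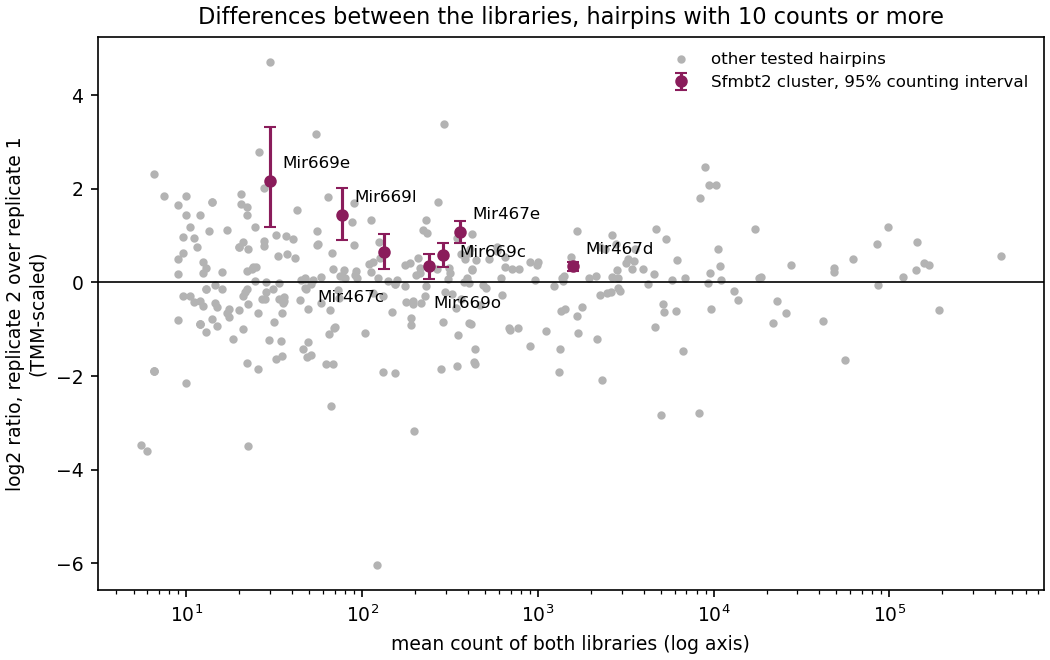
Log2 ratio of TMM-scaled counts, replicate 2 over replicate 1, against the mean count of both libraries on a log axis, for 322 of the 326 tested hairpins; 4 with 0 counts in a library are not drawn. The 7 hairpins of the array, with exact 95% counting intervals, all lie above 0, from 0.34 for Mir467d and Mir669o to 2.18 for Mir669e.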

How the data were processed

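The authors deposited raw counts of reads per hairpin, without normalization, in columns for either strand, the strand of the hairpin and the opposite strand. Per the file headers of the deposited notes, reads were placed on mm10 with GENCODE M21; for the aligner and counter, no name is given in the sources used here. Judging by its layout, the table assigns reads with a single place, which would leave out reads common to identical hairpins, and mature arms and parental alleles are not separated. The same-strand column was used, and rows without a hairpin were kept out of totals. All 2202 identifiers matched GENCODE M21, which gave symbols, positions and hairpin sequences; 0 members matched the RefSeq mature sequences, so none is printed. Some hairpin sequences are not reported here. TMM came from edgeR 4.0.16 in R 4.3.3, size factors from DESeq2 1.42.0, and exact tests and intervals from scipy 1.17.1. Hairpins were named when they had a count in either library; the 10 hairpins of the same families elsewhere and the repeated copies shown were named after their values were seen. Members and lists were chosen with earlier results of these data known. Alternatives covered the count column, denominator, count minimum, scaling, fold threshold, pseudocount, window length and leaving out each library.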

Additional observations from a re-analysis of the deposited data

Results flagged for a closer look

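Reads that matched several places lie outside the hairpin counts and the comparisons above. There were 1925044 in replicate 1 and 2686901 in replicate 2, far more than the 3 counts that a count of 0 allows, which is why they are listed; this does not show that they are unusual. For each count of the Sfmbt2 array, the libraries held 918 such reads in replicate 1 and 805 in replicate 2. How many of them came from the array was not analysed here.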

How the results depend on the processing

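The array's share of 0.114% became 0.161% with the unstranded column, where the array's counts were equal and only the library sum changed, and 0.0468% with all reads as the denominator. With a change of at least 1.5-fold also required, 129 of 326 hairpins and 4 of the 7 members were called. Leaving out each library gave a share of 0.102 to 0.125% and a part of 55.4 to 62.8% for Mir467d, with 7 hairpins at 10 counts or more either way. Called members numbered 6 of 7 with total-count scaling, DESeq2 size factors or at least 50 counts, and 6 of 9 without the filter on low counts. Of all tested hairpins, the called share was 59.2%, 58.3%, 74.0% and 27.3% in these settings, in that order. All hairpins split into 99 higher and 91 lower calls with DESeq2 size factors, 74 and 91 with at least 50 counts, and 86 and 91 without a filter. The members' median log2 ratio ranged from 0.42 to 0.66. Windows of 18 or 20 nt also left 65 hairpins with a distinct window. No paired analysis was possible because there is 1 group. Depth limits Mir669e, Mir669h and Mir466n, and an absent count in a repeated copy is not absence of its microRNA, since shared reads were not assigned.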
